A study of Mus musculus with 38 samples.

Results

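Assay A01 is 1 of the 21 target assays of a qRT-PCR panel run on mouse hearts, and it was chosen by its measured values, as the assay in which LAD mice stood furthest above sham mice at both time points. The difference between LAD and sham mice is therefore a description here and was not tested. A value was present in 30 of the 38 mice and the other 8 entries were empty. The deposited table lists assays by plate code, and no source used here pairs A01 with a gene, so it is called by its code. Groups were labelled Sham, LAD and MLAD, with 5, 7 and 7 male C57BL/6N mice of 8 to 10 weeks at 24 h and as many at 96 h. LAD mice had the left anterior descending coronary artery tied for 30 min and then reopened, and received empty solid lipid nanocarriers. MLAD mice had the same surgery and received 20 μL of a diluted 1 mM stock of the nanocarriers loaded with Myriocin (SLN/myr) at the start of reperfusion. Sham mice underwent the surgery without ligation. RNA came from the at-risk area of the left ventricle in LAD and MLAD mice and from left ventricle tissue in sham mice, so fewer cells of a type and less transcript per cell cannot be told apart.

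In ischemia and reperfusion (I/R) a stretch of heart muscle loses its blood supply and is then perfused again, and the surviving tissue around the infarct goes on to remodel. A remodeling heart is known to shift its contractile genes toward the fetal pattern and to lower its use of fatty acids. Myriocin blocks serine palmitoyltransferase, the enzyme that starts the synthesis of sphingolipids such as ceramide. The targets of the panel include myosin heavy chains, PPAR receptors with the coactivator PGC-1α, the transcription factor TFEB, the autophagy adaptor p62, fatty acid transporters, enzymes of fatty acid oxidation, a hormone-sensitive lipase and perilipins of the lipid droplet. Which target A01 measures was not given in the sources used here.

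Every A01 reading was deposited as a threshold cycle (Ct), the number of PCR cycles needed for the product to be detected, with the Ct of a reference assay in the row directly below it. The relative expression used here is the reference Ct minus the target Ct in the same mouse. Where amplification is a doubling per cycle, these values are on the log2 scale and a difference of 1 stands for a doubling. The study's methods name a single endogenous control, RPLI, and the row below A01 is read here as that gene. Its primer pair is shown because each value below is set against it, with no base singled out, 5′ to 3′ and as listed in the study's primer table. Primers of A01 are not shown, since the same table does not give plate codes.
RPLI forward: ctcggccgttctcctgta
RPLI reverse: gtggaagtggggcttcag

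At 24 h the A01 transcript was lowest in sham mice, higher in LAD mice and widely spread in MLAD mice. The 3 sham mice with a value had a relative expression of -5.31, -5.55 and -5.27 on the log2 scale. The 4 LAD mice stood at -3.12, -2.62, -3.15 and -1.74. All 4 LAD mice were above all sham mice. The 7 MLAD mice ranged from -6.06 to -1.71 with a median of -3.51. In MLAD mice 3 values, of replicates 1, 6 and 7, were at -5.06 or lower and thus close to sham or below it, and the other 4 were at -3.51 or higher. Their SD of 1.50 was the largest among the 21 assays in this group, where the other assays had SDs from 0.185 to 0.927.

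At 96 h the LAD mice stood apart from both other groups in mean level. The 4 sham mice were at -4.55, -4.76, -3.93 and -3.73. The 6 LAD mice ranged from -2.19 to 0.40 with a median of -0.78. In 2 LAD mice, replicates 4 and 6, the target crossed its threshold before the reference. The 6 MLAD mice ranged from -4.13 to -2.13 with a median of -3.33. LAD and sham mice did not overlap at this time, while MLAD mice overlapped sham mice at their lower end and LAD mice at their upper end.

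**Figure D1:**
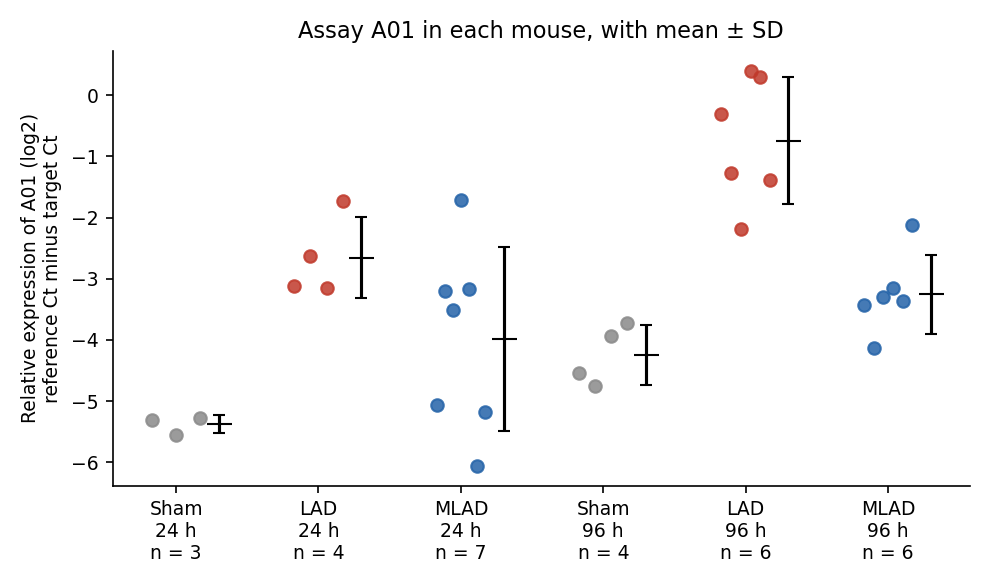
Relative expression of A01 (reference Ct minus target Ct, log2) in each mouse, by group and time, with the mean and SD beside the points. LAD mice lie highest at both times, with means of -2.66 at 24 h and -0.74 at 96 h, and the 7 MLAD mice at 24 h spread from -6.06 to -1.71.

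Ordered by mean, the groups ran from sham at 24 h, at -5.38 ± 0.15 (SD, n = 3), through sham at 96 h, at -4.24 ± 0.49 (SD, n = 4), to MLAD at 24 h, at -3.98 ± 1.50 (SD, n = 7). MLAD at 96 h followed at -3.25 ± 0.65 (SD, n = 6), then LAD at 24 h at -2.66 ± 0.66 (SD, n = 4) and LAD at 96 h at -0.74 ± 1.04 (SD, n = 6). The sham groups of the 2 times did not overlap with each other, as in 9.52% of the assays with the later time higher. From sham at 96 h upward every pair of neighbours in this order overlapped. With the reference of the same reading, the control level of A01 was thus not the same at both times. Sham mice at 96 h were 1.14 higher on the log2 scale than sham mice at 24 h. Between these sham groups the target Ct differed by -4.88 cycles and the reference Ct by -3.74 cycles, both lower at 96 h. The difference between the sham groups was not tested, since sham values took part in the choice of the assay.

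LAD mice had a mean A01 level 6.59-fold that of sham mice at 24 h, a log2 difference of 2.72, and 11.3-fold at 96 h, a log2 difference of 3.50. These are the values on which A01 was chosen. The assay next below it was B07 at 24 h, with a log2 difference of 0.84 between LAD and sham mice, and B02 at 96 h, with 0.94. Over all 21 assays the median log2 difference of LAD from sham mice was -0.32 at 24 h and -1.17 at 96 h. LAD mice lay above all sham mice in A01 alone at 24 h, which is 4.76% of the assays, and in 9.52% of the assays at 96 h. Expressed as relative quantity (a linear scale set to the average sham mouse of that time), LAD mice were at 7.18 ± 3.66 (SD, n = 4) at 24 h and at 13.8 ± 8.83 (SD, n = 6) at 96 h. The single LAD mice ran from 4.68 to 12.5 at 24 h, and at 96 h they ran from 4.14 to 25.0, so the larger mean at 96 h came with a wide spread. The order of the times also turned with the other references described further on. With the averaged reference, raw Ct and the other target assays, LAD minus sham was 4.76, 6.19 and 5.52 at 24 h. At 96 h it was 2.00, 1.21 and 3.29.

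**Figure D2:**
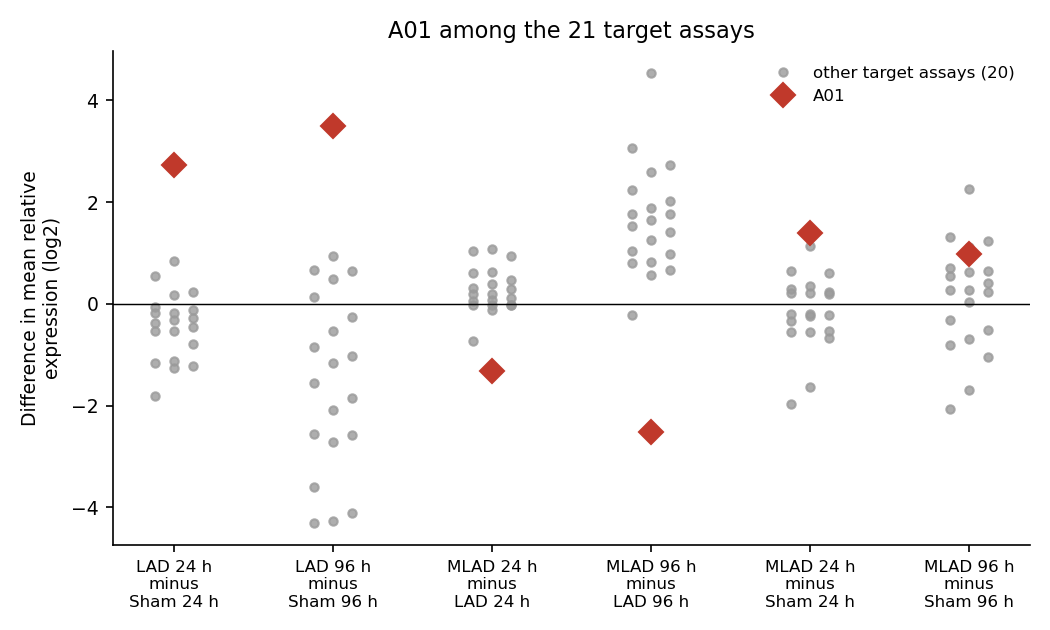
Difference in mean relative expression (log2) between pairs of groups for A01 (diamond) and the 20 other target assays (points). A01 is the highest assay for LAD minus sham at both times, by which it was chosen, and lies at -1.33 and -2.51 for MLAD minus LAD, a position that the choice for high LAD values favours.

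With SLN/myr, A01 was lower than in LAD mice at 96 h, and the difference at 24 h did not pass the exact test. A01 was chosen for high values in the same LAD mice, and this choice by itself favours a lower value in MLAD than in LAD mice, so the p-values of this comparison are not free of it. The mean at 96 h was -3.25 in MLAD and -0.74 in LAD mice, a log2 difference of -2.51, so that LAD mice had 5.70-fold the MLAD level (two-sided exact permutation test, p = 0.00433, and 0.0130 after Benjamini-Hochberg adjustment for the 21 assays). Of the 6 MLAD mice 5 were below all LAD mice, and the sixth, replicate 6, was at -2.13, just above the lowest LAD mouse at -2.19. Across the panel 4.76% of the assays passed this test with MLAD lower, which is A01 alone, and 71.4% passed with MLAD higher. After adjustment 76.2% of the assays passed. The assays had a median log2 difference of 1.54, on the other side of 0 from A01. B02 was the single other assay with a lower mean in MLAD than in LAD mice at 96 h, at a log2 difference of -0.23.

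At 24 h the log2 difference between MLAD and LAD mice was -1.33, which puts LAD mice at 2.51-fold the MLAD level (two-sided exact permutation test, p = 0.109, with 0.00606 the smallest p that 7 against 4 mice allow). The Benjamini-Hochberg adjusted value was 0.377. Fitted in limma over all mice and assays, the same difference had a 95% confidence interval from -2.48 to -0.17 (limma, unadjusted p = 0.0257, adjusted p = 0.135). Same-numbered LAD and MLAD mice at 24 h deviated together over the assays, and in a fit blocked on replicate number the difference was -0.71 (limma, unadjusted p = 0.0360, adjusted p = 0.196). In the 4 numbers with both values MLAD minus LAD was -1.94, -0.57, -0.36 and 0.02, so the number with the highest level in LAD had nearly the same level in MLAD. None of the adjusted values was under 0.05. The exact test passed with MLAD replicate 4 left out, at a difference of -1.70 (exact permutation test, p = 0.00952). Of the 21 assays 14.3% passed the exact test in this comparison with MLAD higher.

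MLAD mice were above sham mice in mean A01 level at both times with the reference of the same reading, though not at 96 h with the other references described further on, and neither difference passed the exact test after adjustment. At 24 h MLAD mice were 1.40 higher than sham mice on the log2 scale, or 2.63-fold (two-sided exact permutation test, p = 0.183, adjusted p = 0.428, smallest possible p = 0.0167), in a comparison where 9.52% of the assays passed with MLAD higher. With the reference Ct averaged over all assays, on raw Ct and against the other target assays it was 3.28, 3.83 and 3.77 (exact permutation test, p = 0.0667 for each), and with sham mice of both times pooled it was 0.74 (exact permutation test, p = 0.259). Without MLAD replicate 6, the one mouse below all sham mice, the difference was 1.74 (exact permutation test, p = 0.0238). At 96 h MLAD mice were 0.99 higher, or 1.98-fold (two-sided exact permutation test, p = 0.0286, adjusted p = 0.0750), where 33.3% of the assays passed the unadjusted test with MLAD higher. In the limma fit the same difference had a 95% confidence interval from -0.20 to 2.18 (limma, unadjusted p = 0.1001), and without sham replicate 1 or 2 the exact test gave p = 0.0714. Relative quantity against sham was 4.07 ± 4.15 (SD, n = 7) in MLAD mice at 24 h and 2.17 ± 1.11 (SD, n = 6) at 96 h. These comparisons share their MLAD mice with those against LAD, and their sham mice took part in the choice of A01.

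The MLAD mice themselves took no part in that choice, and their difference between the times did not pass the test. Mean relative expression was 0.73 higher at 96 h than at 24 h (two-sided exact permutation test, p = 0.286, adjusted p = 0.400), with a 95% confidence interval from -0.29 to 1.76 in limma. Of the 21 assays 38.1% passed the exact test between these groups, and A01 did not. The LAD mice, given as a description, were 1.92 higher at 96 h than at 24 h. In them the target Ct differed by 0.096 cycles between the times and the reference Ct by 2.01 cycles, both higher at 96 h. The difference between MLAD and LAD mice at 96 h minus that at 24 h was -1.19 with a standard error of 0.769 and a 95% confidence interval from -2.75 to 0.38 (limma interaction, Benjamini-Hochberg adjusted p = 0.200). With the replicate number as block it was -1.93, with a 95% confidence interval from -3.05 to -0.81 (limma interaction, adjusted p = 0.00421), where the numbers pair the LAD and MLAD mice at 24 h and not at 96 h. The share of assays passing with the block is not reported here, so this value is not read as particular to A01. Of the 21 assays 52.4% had a higher Myriocin effect at 96 h without the block and 4.76% a lower one, and A01 was in neither set.

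Target and reference Ct of A01 differed between groups and, in each group except sham at 24 h, varied less in their difference than on their own. Target Ct ranged from 23.9 to 33.5 cycles and reference Ct from 21.1 to 28.9 cycles. In MLAD mice at 96 h the SD was 2.43 cycles for the target and 1.98 for the reference, but 0.647 for their difference. In sham mice at 96 h it was 2.25 and 1.78 cycles against 0.491. In MLAD mice at 24 h the difference kept an SD of 1.50, against 2.59 and 2.03 cycles, and in sham mice at 24 h it was 0.151, against 0.137 and 0.0479 cycles. Between LAD and sham mice at 24 h the target Ct differed by -6.19 cycles and the reference Ct by -3.46 cycles, both lower in LAD. At 96 h the target Ct of LAD mice was 1.21 cycles below that of sham mice, and the reference Ct was 2.29 cycles above it. LAD mice had nearly the same target Ct at both times, 25.8 cycles at 24 h and 25.9 at 96 h, and their reference Ct was 23.2 and 25.2 cycles. At 24 h MLAD mice had a target Ct 2.36 cycles and a reference Ct 1.03 cycles above those of LAD mice. The same differences at 96 h were 2.87 and 0.359 cycles.

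**Figure D3:**
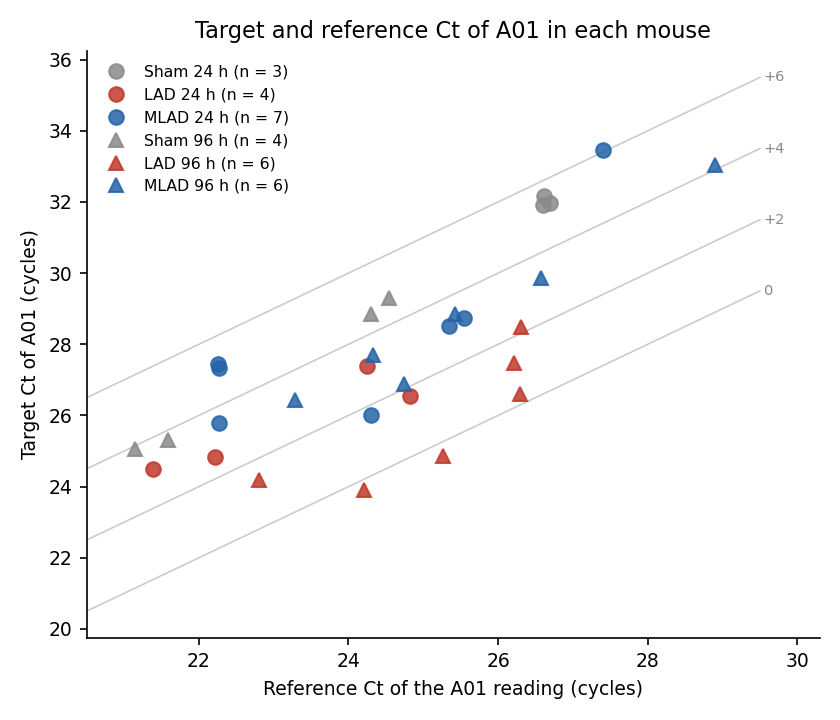
Target Ct of A01 against the reference Ct of the same reading, in cycles, for each of the 30 mice, with circles for 24 h and triangles for 96 h. Grey lines mark a target Ct equal to the reference Ct (0) or above it by the printed number of cycles, and LAD mice at 96 h lie nearest to equality.

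The reference Ct listed under A01 was often unlike the reference Ct listed for the same sample number under the other assays. It was more than 1 cycle from the mean of the other assays in 18 of 30 mice, and below it in 23 of 30. In sham mice at 24 h the mean gap was -0.0117 cycles, whereas in LAD and MLAD mice at 24 h it was -2.18 and -2.04 cycles. At 96 h the mean gap was -2.34 cycles in sham, -0.773 in LAD and -0.0842 in MLAD mice. Over all its mice the mean gap of A01 was -1.25 cycles, the largest in size among the 21 assays, with B07 next at -0.93 cycles. In the SD of the gap A01 had rank 5 of the 21 assays, at 1.86 cycles against a median of 1.36 cycles in the others. None of the A01 reference readings (0 of 30) recurred to the last decimal under another assay. The files do not show if readings under a given sample number come from 1 cDNA run in every assay, and the part of these gaps in the group differences was not tested.

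The choice of reference bore on some A01 comparisons and not on others. The lower level in MLAD than in LAD mice at 96 h held with each choice. All choices use the same A01 readings of LAD mice by which A01 was chosen, so this is not separate support. The log2 difference was -3.11 with the reference Ct averaged over all assays of the sample number (exact permutation test, p = 0.0195) and -2.87 on raw target Ct without a reference (exact permutation test, p = 0.0411). Against the mean Ct of the other target assays with a value in that mouse it was -4.57 (exact permutation test, p = 0.00216, the lowest that 6 against 6 mice can give), a scale that subtracts the opposite movement of most of the panel. The assays entering that mean differed between mice. At 96 h LAD replicate 7 had a value in 8 assays and LAD replicate 3 in 21, A01 included, and the part of this in the difference was not tested. LAD mice stood above sham mice in mean on all of these scales, at log2 differences of 4.76, 6.19 and 5.52 at 24 h. In the same order they were 2.00, 1.21 and 3.29 for the mice at 96 h, each smaller than at 24 h. On raw target Ct the groups at 96 h overlapped. There LAD replicates 1, 2 and 3 were at 26.6, 27.5 and 28.5 cycles, and sham replicates 3 and 5 were lower, at 25.1 and 25.3 cycles. The higher level in MLAD than in sham mice at 96 h did not hold. There the difference turned to -1.10, -1.66 and -1.28 in the same order (exact permutation test, p = 0.438, 0.324 and 0.419). The difference between MLAD mice at 96 and 24 h turned sign as well, to -1.08, -0.61 and -0.93 (exact permutation test, p = 0.413, 0.642 and 0.487).

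**Figure D4:**
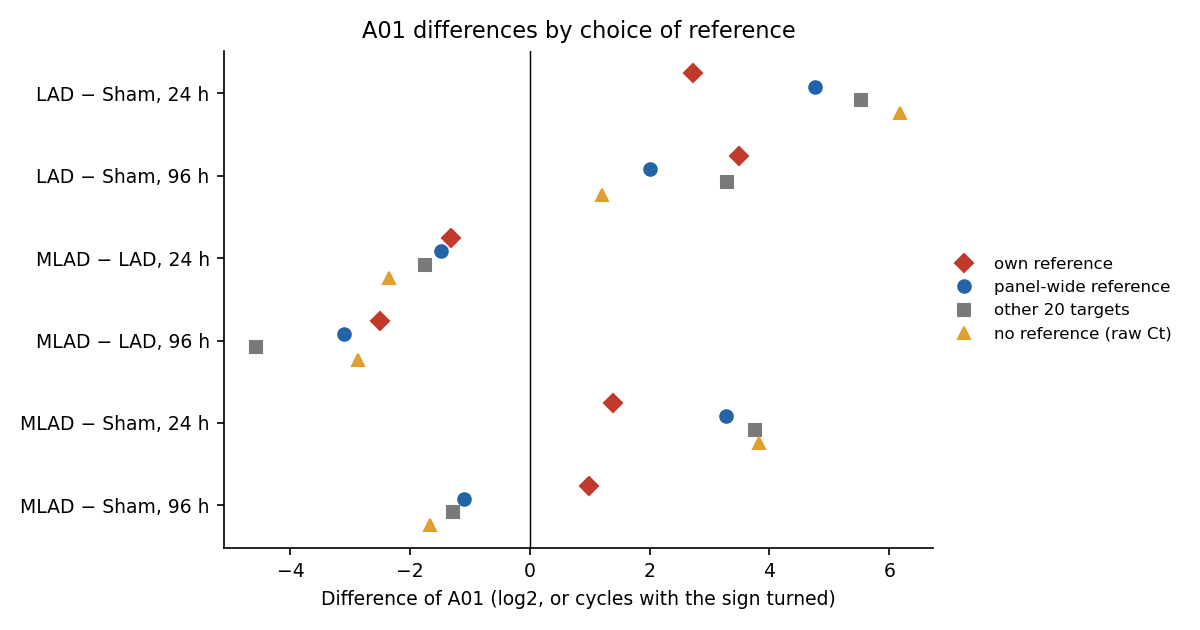
Differences of A01 between pairs of groups (log2, or cycles with the sign turned for raw Ct) with the reference Ct of its own reading, the reference Ct averaged over all assays, the mean Ct of the other target assays with a value in that mouse, and no reference. MLAD minus LAD at 96 h lies below 0 with all of them, from -4.57 to -2.51, and MLAD minus sham at 96 h changes sign.

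No other assay followed the pattern of A01 over the 6 groups closely. Over the 6 group means of relative expression the highest Pearson correlation with A01 was 0.17 for B02, followed by 0.07 for A03 and -0.05 for B03. The lowest was -0.95 for B08, whose group means were 3.43, 1.61 and 1.80 in sham, LAD and MLAD mice at 24 h and 3.09, -1.22 and 1.03 at 96 h. B08 was thus lowest in LAD mice at both times, where A01 was highest. B08 was not alone in this, and the next lowest correlation, in another assay, was -0.92. With 6 points that share the same mice, these correlations are a description without a test. They use the LAD and sham means by which A01 was chosen, and this choice by itself favours low correlations in the other assays. By mean relative expression A01 ranked 19th from the top of the 21 assays in sham mice at 24 h and 16th in sham mice at 96 h. In LAD mice it ranked 13th and 5th, and in MLAD mice 15th and 13th, at 24 and 96 h. Such ranks between assays also depend on how well each primer pair amplifies, which was not measured in these data.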

How the data were processed

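Per the labels, DNase-treated RNA was reverse transcribed (1000 ng) and amplified for 40 cycles with SYBR green, and the authors deposited a Ct for each assay and mouse without normalization. How wells were combined was not given in the sources used here, so the technical error of a Ct is unknown. A second deposited table holds the authors' ratios to sham and was not used. A01 and the lists were chosen with earlier results of these data known. Named assays were A01, the reference, the assay next below A01 for LAD minus sham, the 3 assays most like A01 and the least like it over the group means, and assays lower in MLAD than LAD at 96 h.

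Relative expression was reference Ct minus target Ct. Pairs of groups were compared by two-sided exact permutation of mean differences, with p as 2 times the smaller tail and a threshold of 0.05. A01 was tested in 5 pairwise comparisons and an interaction (limma over all mice), and p-values were adjusted over the 21 assays of each. For LAD and MLAD mice at 24 h the shared replicate numbers come from the labels. There every one of 7 same-numbered pairs correlated above 0.1 over the assays (0.150 to 0.654), so the blocked value is given. Pairs of unlike numbers were not compared with them. The blocked fit covered all groups at both times, including those whose numbers did not pair the mice. Tests were tested on simulated data, which included neither the choice of A01 by its values nor shifts of the reference Ct. Python 3.11.15, NumPy 2.4.6, pandas 2.3.3, matplotlib 3.10.9, R 4.3.3 and limma 3.58.1 were used.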

Additional observations from a re-analysis of the deposited data

How the results depend on the processing

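All results below except the change of MLAD mice use LAD or sham mice by whose values A01 was chosen. Alternatives that pass reuse these values and are therefore not separate support. The log2 difference between MLAD and LAD mice at 96 h passed under all alternatives except exact sign flips over 5 same-numbered pairs, which cannot go below 0.0625 (-2.62, p = 0.0625). With each mouse left out in turn it ranged from -2.80 to -2.28. At 24 h this difference passed in limma over all mice (-1.33, p = 0.0257), in limma with the replicate block (-0.71, p = 0.0360) and, by the exact permutation test, without MLAD replicate 4. It did not pass with sign flips over 4 pairs (-0.71, exact test, p = 0.250, where 0.125 is the smallest possible), as a difference of medians (-0.64, exact permutation test, p = 0.218) or without a reference (-2.36, exact permutation test, p = 0.0788). It ranged from -1.70 to -0.98 with a mouse left out. MLAD against sham at 24 h passed in limma (1.40, p = 0.0324), with the replicate block (1.58, limma, p = 0.000199) and, by the exact permutation test, without MLAD replicate 6, and ranged from 1.02 to 1.74. MLAD against sham at 96 h ranged from 0.76 to 1.16 with a mouse left out. It no longer passed as a difference of medians (0.90, exact permutation test, p = 0.0857), in limma (0.99, p = 0.1001), after adjustment (0.99, p = 0.0750), with the replicate block (0.59, limma, p = 0.234) or with sign flips over 4 pairs (0.68, p = 0.125, the smallest they allow). It turned to -1.66 on raw Ct, -1.28 against the other target assays and -1.10 with the averaged reference. The change of MLAD mice from 24 to 96 h turned to -0.61, -0.93 and -1.08 in the same order, and ranged from 0.38 to 1.11 with a mouse left out. LAD against sham at 24 h was 6.19, 5.52 and 4.76 in that order, 2.07 with sham mice of both times pooled, and 2.41 to 2.89 with a mouse left out. At 96 h it was 1.21 on raw Ct and 2.00 with the averaged reference, and 3.27 to 3.79 with a mouse left out. The interaction passed with the replicate block (-1.93, limma, adjusted p = 0.00421) and ranged from -1.53 to -0.81 with a mouse left out. The cause of these moves was not tested. Apart from MLAD against LAD at 24 h, the replicate numbers did not pair the mice (r = -0.0512, 0.00985 and 0.121 for MLAD against LAD at 96 h and against sham at 24 and 96 h). All A01 target Ct values were below 35, so a limit there changed no A01 value. The small number of mice, 3 to 7 in a group, limits what these tests can show.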
